A study of Mus musculus with 6 samples.

Results

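The matrix metalloproteinases (MMPs) and the tissue inhibitors of metalloproteinases (TIMPs) were followed in mouse skin squamous cell carcinoma (SCC) cells with and without focal adhesion kinase (FAK). The set held 10 genes, chosen by family and listed by Ensembl identifier: the gelatinases *Mmp2* and *Mmp9*, the stromelysins *Mmp3* and *Mmp10*, the macrophage elastase *Mmp12*, the collagenase *Mmp13*, the membrane-anchored *Mmp14*, and the inhibitors *Timp1*, *Timp2* and *Timp3*. The choice was made with earlier results of these data known. All 10 were found among the 17204 genes of the table. The tumors came from K14CreER FAKflox/flox mice of the FVB strain, in which a keratin 14 promoter drives an inducible Cre recombinase, and were raised with DMBA and TPA, a carcinogen and a tumor promoter painted on the skin. Cells in culture were treated with 4-hydroxytamoxifen and a single FAK-null clone was kept (SCC FAK-/-). The same clone, transduced with a retrovirus that carries wild-type FAK, gave the second line (SCC FAK-WT). Both lines thus share the Cre transgene, the deletion and the clone of origin. The re-expressing cells were also transduced and kept under hygromycin, and effects of these steps cannot be told apart from that of FAK. Each line was measured on 3 Affymetrix arrays described as biological replicates, and the values are log2 expression after Robust Multi-array Average (RMA) normalization by the authors.

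MMPs are zinc-dependent endopeptidases that cut collagens, laminins, proteoglycans and many cell surface and secreted proteins. Most are made as inactive proenzymes and are opened by other proteases, and TIMPs block the active site. Transcription of several secreted MMPs in keratinocytes answers to growth factors, cytokines and tumor promoters through AP-1, the Fos and Jun dimer. *Mmp14* and *Timp2* hold a special place, since the membrane enzyme activates the *Mmp2* proenzyme at the cell surface with TIMP2 as a bridge. The array measures the transcripts only, so secretion, activation and inhibition of the proteins lie outside these data.

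The 6 arrays had medians of 5.90 to 5.97, a closeness that RMA brings about because it equalizes the distributions of the arrays. The median gene differed by 0.147 to 0.183 log2 units between replicates of a line. Between arrays of different lines it differed by 0.176 to 0.217, so the ranges overlapped. The lower bound was that of SCC FAK-WT replicate 1 against SCC FAK-/- replicate 2. The table used here gives no detection calls, and *Mmp12* and *Mmp13* had means below 2.88, the bound of the dimmest genes (the lowest decile), where RMA values can understate a change. Since 3 samples against 3 give a two-sided exact permutation p of 0.1 at the least for any single gene, the tests below come from limma fitted to all genes, with Benjamini-Hochberg adjustment over all 17204. The identifiers of other genes could not be paired with symbols, so the *Ptk2* transcript, the markers of keratinocytes and the other MMP genes were not analysed here.

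Promoter sequences are shown first for the members with an entry in the RefSeq table (build GRCm38.p6), because *Mmp3*, *Mmp10*, *Mmp12* and *Mmp13* differ from *Mmp14* and the TIMPs in their promoter motifs. The table had 8 of the 10 genes, without *Mmp2* and *Mmp9*, and 2 starts for *Mmp12*. The lines below give the 100 bases before the annotated start on the coding strand. Capitals mark the AP-1 element (TGAGTCA or its reverse complement TGACTCA), the TATA box (TATAAA or TTTATA) and the GC box (GGGCGG or CCGCCC).
*Mmp13* (chr9:7272414-7272513, plus strand): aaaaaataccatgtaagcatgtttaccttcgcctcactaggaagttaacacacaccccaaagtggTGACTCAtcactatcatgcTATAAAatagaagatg
*Mmp12*, second start (chr9:7347274-7347373, plus strand): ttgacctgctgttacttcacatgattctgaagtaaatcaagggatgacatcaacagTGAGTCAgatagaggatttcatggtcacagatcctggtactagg
*Mmp3* (chr9:7445722-7445821, plus strand): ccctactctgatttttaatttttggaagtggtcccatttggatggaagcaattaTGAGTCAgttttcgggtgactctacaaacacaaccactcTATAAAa
*Mmp10* (chr9:7502242-7502341, plus strand): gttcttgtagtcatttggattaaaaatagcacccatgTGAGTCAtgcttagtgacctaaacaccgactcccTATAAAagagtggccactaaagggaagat
*Mmp14* (chr14:54431498-54431597, plus strand): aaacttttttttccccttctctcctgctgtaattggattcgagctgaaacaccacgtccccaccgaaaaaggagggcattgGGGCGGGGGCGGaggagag
*Timp1* (chrX:20870066-20870165, plus strand): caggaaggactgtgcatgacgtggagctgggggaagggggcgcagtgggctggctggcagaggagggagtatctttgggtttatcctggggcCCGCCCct
*Timp2* (chr11:118355412-118355511, minus strand): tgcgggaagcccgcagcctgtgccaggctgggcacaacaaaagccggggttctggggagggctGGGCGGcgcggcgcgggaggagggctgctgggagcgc
*Timp3* (chr10:86300312-86300411, plus strand): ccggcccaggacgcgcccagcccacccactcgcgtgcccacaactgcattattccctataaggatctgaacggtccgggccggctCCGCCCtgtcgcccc

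The AP-1 element was found in 4 of the 8 genes within the 300 bases from 250 before to 50 after the start, namely *Mmp13*, *Mmp3*, *Mmp10* and the second start of *Mmp12*. Counted by promoter, 4 of the 9 promoters of these genes held it, and 5.20% of all 32851 promoters of the same length did. The same 4 promoters held the TATA letters, which 13.6% of all promoters held, and both motifs together were present in 0.941% of all promoters. The first base of the TATA letters lay 29 bases before the annotated start in *Mmp10*, 16 in *Mmp13* and 7 in *Mmp3*. In the second start of *Mmp12* they lay past the annotated start, so they are not among the bases shown. Whether these letters act as a TATA box was not tested. The first bases of the AP-1 element and the TATA box lay 19 bases apart in *Mmp13*, 34 in *Mmp10*, 39 in *Mmp3* and 48 in *Mmp12*. The first start of *Mmp12* held none of the AP-1, TATA or GC box letters. No GC box was found in these 4 genes, and *Mmp14*, *Timp1*, *Timp2* and *Timp3* each held at least 1, against 35.7% of all promoters. None of the latter 4 had either the AP-1 letters or the TATA letters in this window. The PEA3 element (AGGAAG or CTTCCT), which Ets factors bind, was found in 6 of the 8 genes, in *Mmp12* at the first start. By promoter this was 6 of 9, against 35.4% of all promoters. The base composition followed the same division, with 37.7% to 43.7% G and C in the promoters of *Mmp3*, *Mmp10*, *Mmp12* and *Mmp13* and 55.0% to 68.7% in those of *Mmp14* and the TIMPs, where the median of all promoters was 52.7%. These are matches of letters in the reference strain, not measured binding.

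**Figure D1:**
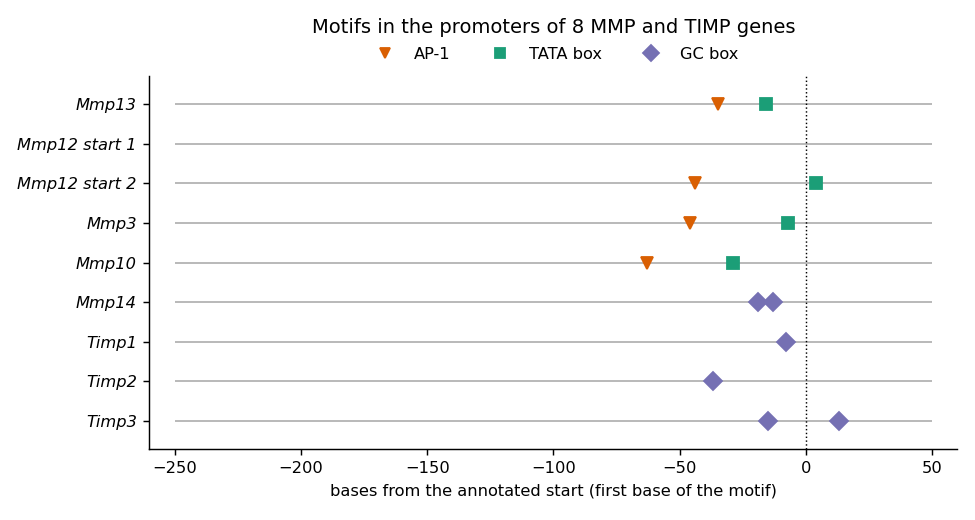
Positions of the AP-1, TATA and GC box letters on either strand in the promoters of 8 MMP and TIMP genes, with the first base of each match plotted by its distance in bases from the annotated start (dotted line). AP-1 and TATA matches appear in *Mmp13*, *Mmp3*, *Mmp10* and the second start of *Mmp12*, and GC boxes in *Mmp14* and the 3 TIMP genes.

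Re-expression of FAK went with less *Timp3* and less *Mmp14* (unadjusted p under 0.01), and *Timp3* alone held at an adjusted p under 0.05. The other 8 genes passed neither threshold. In a bulk measurement, fewer cells with a transcript and less of it per cell cannot be told apart. *Mmp2* had the largest difference in the other direction, 1.79-fold higher in SCC FAK-WT cells, with a wide spread between its 3 samples. Of all genes, 6.85% passed the unadjusted and 1.92% the adjusted threshold. In the downward direction, 3.66% of all genes were called at an unadjusted p under 0.01 against 2 of these 10, and 1.10% at an adjusted p under 0.05 against 1 of these 10. None of the 10 was called upward, where 3.19% and 0.820% of all genes were. At an unadjusted p under 0.05, 2 were higher (7.76% of all genes) and 4 lower (7.74%). The samples of the 2 lines did not overlap for 5 of the 10 genes, *Mmp2* and *Timp1* upward and *Mmp14*, *Timp2* and *Timp3* downward, where 21.5% of all genes had no overlap, 11.5% upward and 10.0% downward. The median change of the 10 genes was -0.03 log2 units and that of all genes 0.02, while the median size of the change regardless of sign was 0.32 against 0.14. Since the genes were chosen with earlier results known, these comparisons with all genes are a description and not a test.

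**Figure D2:**
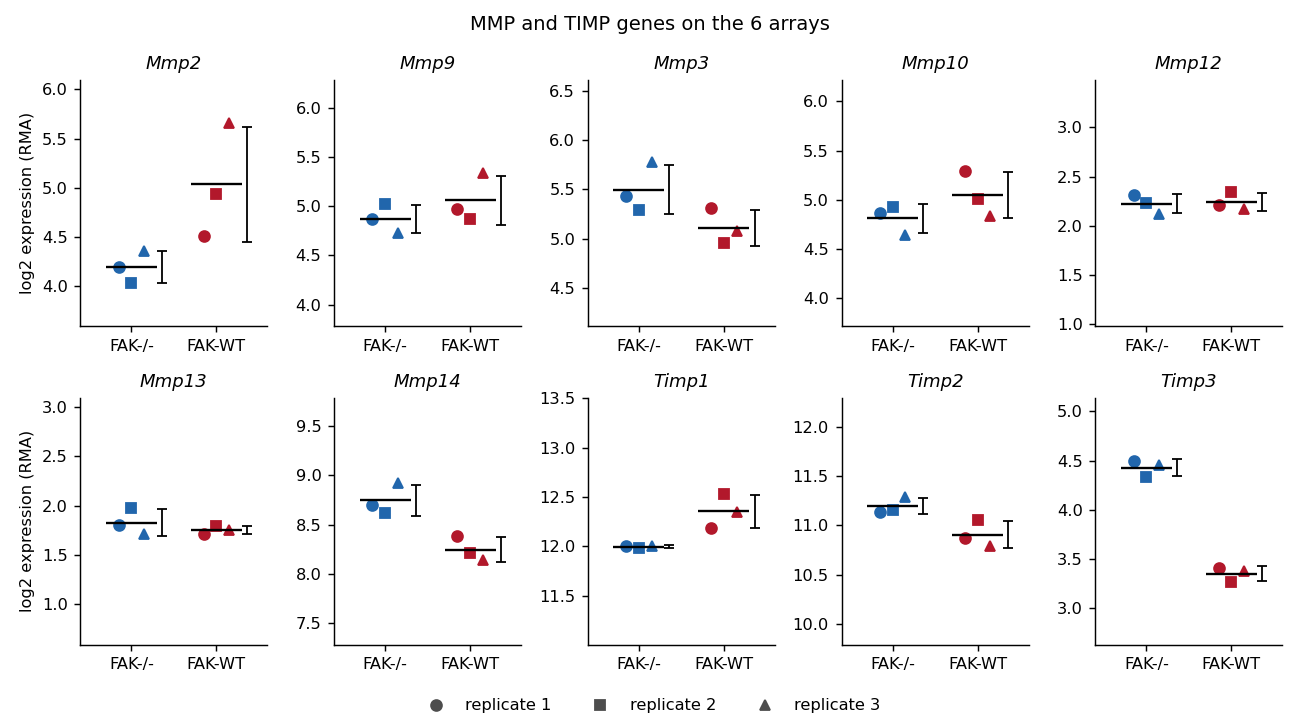
log2 expression (RMA) of each MMP and TIMP gene on the 3 SCC FAK-/- arrays (blue) and the 3 SCC FAK-WT arrays (red), with replicate number by symbol shape, the mean as a line and the SD as a bar, each panel spanning the same number of log2 units. The cell lines are widest apart for *Timp3*, do not overlap for *Mmp2*, *Mmp14*, *Timp1* and *Timp2*, and overlap for the other 5 genes.

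**Figure D3:**
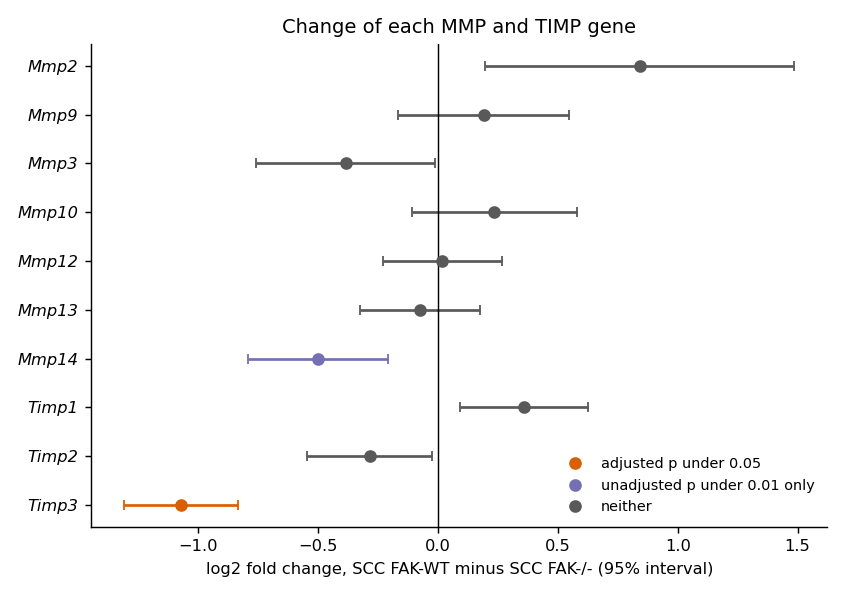
log2 fold change of each gene, SCC FAK-WT minus SCC FAK-/-, with the 95% interval from limma, colored by the threshold passed. *Timp3* and *Mmp14* lie below 0 and are the 2 genes past a threshold, and the interval of *Mmp2* is the widest.

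Of the 3 inhibitors, *Timp3* fell and the other 2 passed no threshold. TIMP3 is the TIMP that binds to the extracellular matrix, and it also blocks ADAM17 and several ADAMTS proteases. The *Timp3* (ENSMUSG00000020044) values were 4.49, 4.33 and 4.45 on the 3 SCC FAK-/- arrays and 3.41, 3.27 and 3.38 on the 3 SCC FAK-WT arrays. Every SCC FAK-WT sample lay below every SCC FAK-/- sample, with 0.92 log2 units between the nearest samples and ranges of 0.17 and 0.14 within the lines. The mean was 4.43 ± 0.086 (SD, n = 3) without FAK and 3.35 ± 0.073 (SD, n = 3) with it. The log2 fold change of -1.07 had a standard error of 0.10 (limma adjusted p = 0.00432). This is 2.10-fold lower, and the 95% interval of SCC FAK-WT over SCC FAK-/- ran from 0.404 to 0.560. Among all genes, 126 had a more negative change than *Timp3* and 42 had a lower p. Its mean over the 6 arrays, 3.89, was below 4.62, the bound of the lowest tercile of genes. The filter on dim genes left these genes out, so this filter could not test *Timp3*. Whether the transcript was above background was not tested.

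TIMP1 is a secreted inhibitor that growth factors and phorbol esters induce in many cells. The *Timp1* (ENSMUSG00000001131) values were 12.00, 11.98 and 12.00 in SCC FAK-/- and 12.19, 12.53 and 12.35 in SCC FAK-WT cells. The SCC FAK-/- samples were within 0.02 log2 units of each other and all SCC FAK-WT samples lay above them, spread over 0.34. The log2 fold change was 0.36 (standard error 0.11, 95% interval 0.09 to 0.63, limma adjusted p = 0.186), which passed neither threshold. Without SCC FAK-WT replicate 1, the lowest of its line, the difference was 0.44 and its unadjusted limma p 0.00822. Without SCC FAK-WT replicate 2, the highest of its line, the difference was 0.27 and its unadjusted limma p 0.0467.

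TIMP2 inhibits MMPs and, with MMP14, takes part in the activation of the *Mmp2* proenzyme. The *Timp2* (ENSMUSG00000017466) values were 11.14, 11.15 and 11.29 in SCC FAK-/- and 10.87, 11.06 and 10.79 in SCC FAK-WT cells. The lines did not overlap, but the nearest samples were 0.08 log2 units apart. The difference was -0.29 log2 units (standard error 0.11, 95% interval -0.55 to -0.02, limma adjusted p = 0.277).

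MMP14, or MT1-MMP, is anchored in the plasma membrane, cuts fibrillar collagen at the cell front and activates other proenzymes. The *Mmp14* (ENSMUSG00000000957) values were 8.70, 8.61 and 8.92 in SCC FAK-/- and 8.39, 8.21 and 8.14 in SCC FAK-WT cells. All SCC FAK-WT samples were lower, with 0.23 log2 units between the nearest samples. The mean was 8.74 ± 0.16 (SD, n = 3) in SCC FAK-/- and 8.24 ± 0.13 (SD, n = 3) in SCC FAK-WT cells. The log2 fold change was -0.50, with a standard error of 0.12 (limma adjusted p = 0.103). This is 1.41-fold lower, a call at the unadjusted threshold and not at the adjusted one. The call was lost when SCC FAK-WT replicate 2 or 3 or SCC FAK-/- replicate 1 or 3 was left out, at unadjusted p-values of 0.0153, 0.0182, 0.0124 and 0.0158. The fold change then ran from -0.52 to -0.41, so the direction held without any one of these arrays.

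The gelatinases cut denatured collagen and the type IV collagen of basement membranes. The *Mmp2* (ENSMUSG00000031740) values were 4.20, 4.03 and 4.36 in SCC FAK-/- and 4.51, 4.94 and 5.66 in SCC FAK-WT cells. The SCC FAK-WT samples lay above the others but were 1.16 log2 units apart among themselves, and the lowest was 0.15 above the highest SCC FAK-/- sample. Their SD of 0.58 exceeded that of 96.9% of all genes in this line. The log2 fold change was 0.84 (standard error 0.27, 95% interval 0.20 to 1.48, limma adjusted p = 0.196), and its unadjusted p of 0.0173 missed the threshold. Leaving out an array changed its side of that threshold. Without SCC FAK-WT replicate 1, the log2 fold change was 1.11 and the unadjusted p 0.00275, and without SCC FAK-WT replicate 3 the log2 fold change was 0.53. Its lowest adjusted p over the 13 alternatives was 0.108. The mean of *Mmp2* over the 6 arrays, 4.617, was just below 4.618, the bound of the lowest tercile of genes. Whether its transcript was above background was not tested.

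*Mmp9* (ENSMUSG00000017737), the gelatinase B of inflamed and carcinogen-treated skin, stood at 4.87, 5.02 and 4.73 in SCC FAK-/- and at 4.97, 4.87 and 5.34 in SCC FAK-WT cells. The lines overlapped, and SCC FAK-WT replicate 3 was the only sample above the SCC FAK-/- range. Its log2 fold change of 0.19 had a 95% interval from -0.17 to 0.55 (limma adjusted p = 0.633), and the change was 0.05 without SCC FAK-WT replicate 3 and 0.12 without SCC FAK-/- replicate 3. A change of 1.46-fold upward or a small fall are both within this interval. Among the SCC FAK-WT samples, the replicate that was highest for *Mmp9* was also the highest for *Mmp2*. It was the lowest for *Mmp14*, *Timp2*, *Mmp10* and *Mmp12*, and in the middle for *Mmp3*, *Mmp13*, *Timp1* and *Timp3*.

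*Mmp13*, *Mmp12*, *Mmp3* and *Mmp10* stand in this order in a run of 10 neighboring MMP genes on chromosome 9, with no other protein-coding gene between them in the RefSeq annotation. The remaining 6 genes of the run, *Mmp1b*, *Mmp1a*, *Mmp8*, *Mmp27*, *Mmp20* and *Mmp7*, were not analysed here. No member of the run passed a threshold (0 of 4 with limma, and 1, *Mmp3*, at an unadjusted p under 0.05), and in all 4 the samples of the lines overlapped. Of all genes, 6.85% passed the unadjusted threshold, 7.74% were lower at an unadjusted p under 0.05 and 21.5% had no overlap, so a count of 0 in 4 genes is near the background. A positive change was found in 2 and a negative one in 2, with a median of -0.03 log2 units. *Mmp3* and *Mmp10* are the stromelysins with both AP-1 and TATA letters shown above. Their log2 fold changes were -0.39 and 0.24, and neither was called (limma adjusted p = 0.304 and 0.520). The interval of the *Mmp10* change, from -0.11 to 0.58, held both signs, so its direction is not settled. Whether the motifs bear on the change was not tested.

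Stromelysin 1, the product of *Mmp3*, has broad substrates and activates other proenzymes. The *Mmp3* (ENSMUSG00000043613) values were 5.43, 5.29 and 5.77 in SCC FAK-/- and 5.31, 4.95 and 5.07 in SCC FAK-WT cells. SCC FAK-/- replicate 3 was the highest, and SCC FAK-WT replicate 1 lay just above the lowest SCC FAK-/- sample. Its log2 fold change was -0.39 (standard error 0.16, 95% interval -0.76 to -0.01, limma adjusted p = 0.304), and it was -0.25 without SCC FAK-/- replicate 3.

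Stromelysin 2, the product of *Mmp10*, is made by keratinocytes at wound edges. The *Mmp10* (ENSMUSG00000047562) values were 4.87, 4.92 and 4.64 in SCC FAK-/- and 5.29, 5.01 and 4.84 in SCC FAK-WT cells. The lowest SCC FAK-WT sample was below 2 of the SCC FAK-/- samples. Its difference of 0.24 log2 units had a 95% interval from -0.11 to 0.58 (limma adjusted p = 0.520), and it was 0.11 without SCC FAK-WT replicate 1 and 0.15 without SCC FAK-/- replicate 3.

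*Mmp13*, which encodes the main interstitial collagenase of the mouse, and *Mmp12*, the elastase best known from macrophages, lay near the floor of the arrays, where the lowest value of any gene was 1.34. The *Mmp13* (ENSMUSG00000050578) values ran from 1.71 to 1.97 in SCC FAK-/- and from 1.71 to 1.79 in SCC FAK-WT cells. Those of *Mmp12* (ENSMUSG00000049723) ran from 2.12 to 2.31 and from 2.17 to 2.34. The samples were interleaved in both genes, and the 95% intervals of the log2 fold change were -0.33 to 0.18 for *Mmp13* and -0.23 to 0.27 for *Mmp12*. Without SCC FAK-/- replicate 2 the change of *Mmp13* went from -0.08 to -0.0026, and without SCC FAK-/- replicate 3 to -0.13. Whether either transcript was above background was not tested.

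**Figure D4:**
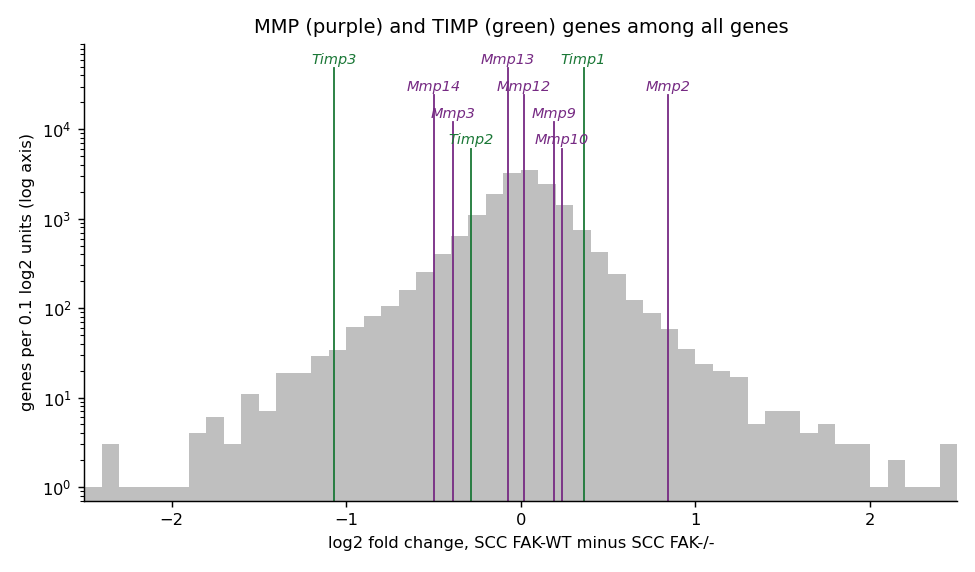
Number of genes in each 0.1-unit bin of log2 fold change (SCC FAK-WT minus SCC FAK-/-, gray, log axis; genes beyond 2.5 units are not drawn) with the MMP genes in purple and the TIMP genes in green. *Timp3* lies in the lower tail, where 126 genes had a more negative change, and *Mmp2* in the upper, where 173 had a higher one.

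The genes whose profile over the 6 arrays lay closest to that of *Timp3*, after each gene's mean was subtracted, were ENSMUSG00000029108 and ENSMUSG00000050315. They differed from it by 0.049 and 0.064 log2 units on average per array. Their own log2 fold changes were -1.01 (limma adjusted p = 0.00479) and -1.06 (limma adjusted p = 0.00436). They were chosen for this likeness.

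Seen by role, the enzyme and the inhibitor genes each held both signs. Of the 7 MMP genes, 1 was lower at an unadjusted p under 0.01 and 6 were not called, with 4 positive and 3 negative changes. Of all genes, 3.66% were lower at that threshold, and 9175 of 17204 had a positive change. In the trio that acts at the cell surface, *Mmp14* and *Timp2* had negative changes, with a call at the unadjusted threshold for *Mmp14* and none for *Timp2*, and *Mmp2* had a positive change without a call. Differences between genes in their response were not tested. With 1 array left out in turn, *Timp3* stayed between -1.12 and -1.03 log2 units, while *Timp1* stayed between 0.27 and 0.44 and *Timp2* between -0.36 and -0.23.

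**Figure D5:**
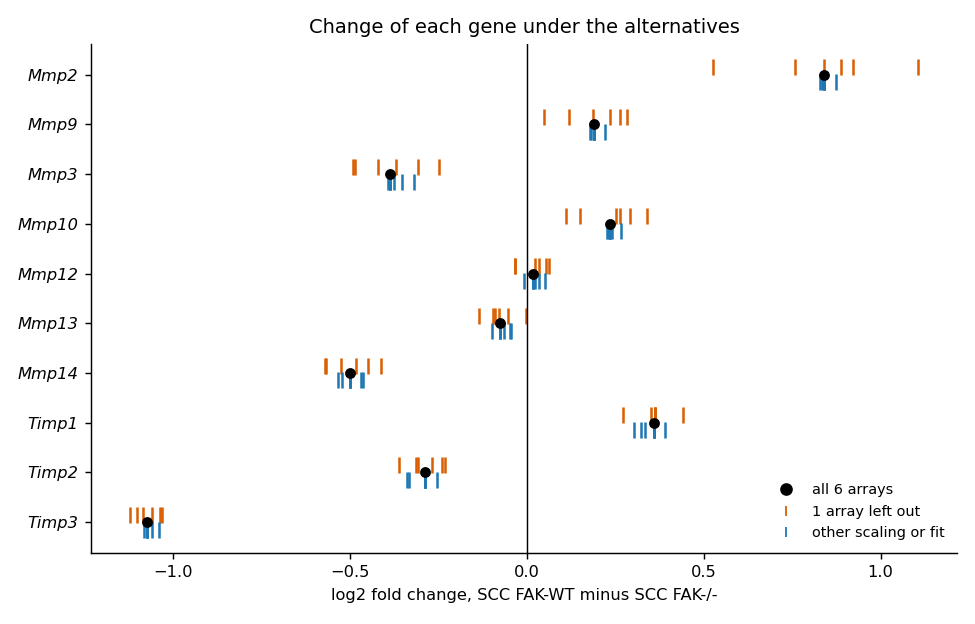
log2 fold change of each gene (SCC FAK-WT minus SCC FAK-/-) on all 6 arrays (black), with 1 array left out (orange) and under other scalings or fits (blue). *Timp3* moves little, *Mmp2* ranges from 0.53 to 1.11, and *Mmp12* takes both signs.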

How the data were processed

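RNA of the 2 lines, 3 samples each, was measured on Affymetrix mouse GeneChips. The authors collapsed the probes to Ensembl gene identifiers and normalized with RMA in the affy package; the deposited values were taken as log2 from their range, and the probe mapping, genome build and versions are not given in the sources used here. RMA equalizes the distributions of the arrays, so a shift of all genes would not show. Samples were grouped by line as labelled, and no value was left out.

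limma 3.58.1 (R 4.3.3, default moderation, two-sided) fitted the cell line to each of the 17204 genes, with calls at an unadjusted p under 0.01, the threshold of the methods, and at a Benjamini-Hochberg adjusted p under 0.05. The fit was tested on simulated data. Members and lists were chosen with earlier results of these data known. All 10 members were named through their Ensembl identifiers; the planned lists of related genes, cell type markers, FAK check and neighbors of called genes were not run, because 0 of 49997 RefSeq entries carried an Ensembl identifier. The text names all members and, for the member with the lowest p, the closest profiles by mean absolute difference of gene-centred values over the 6 arrays (2 of the 3 that the rule names). Alternatives were trend and robust moderation, no moderation, 3 further scalings, array weights, a filter on dim genes, a replicate block, each array left out and a minimum change of 1.5-fold. The replicate p-values measure the spread between samples described as biological replicates. What separated these samples (cultures or passages) is not given in the sources used here. Both lines come from a single clone, so the p-values do not measure a spread between independent clones.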

Additional observations from a re-analysis of the deposited data

How the results depend on the processing

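The 10 genes kept their direction under every alternative run except *Mmp12*, whose change of 0.02 became -0.0079 with array weights and ran from -0.034 (without SCC FAK-WT replicate 2) to 0.063 with an array left out, being -0.033 without SCC FAK-/- replicate 3. *Timp3* kept an adjusted p under 0.05 in all 13 alternatives that tested it (0.00269 to 0.0484, the latter without moderation); the filter on dim genes removed it, with *Mmp2*, *Mmp12* and *Mmp13*, and so left 1 gene lower by the unadjusted threshold and 0 by the adjusted one. The number of genes lower at an unadjusted p under 0.01, 2 in the comparison above, was also 1 without moderation, with the replicate block and at a minimum change of 1.5-fold, and 1 to 2 with an array left out, *Mmp14* being the gene lost. The number higher, 0 above, was 1 with trend and robust moderation (*Timp1*, adjusted p = 0.0504, 0.0504 to 0.372 over its alternatives), 1 with the replicate block (*Mmp2*), and 0 to 2 with an array left out, the 2 being *Mmp2* and *Timp1* without SCC FAK-WT replicate 1. *Timp2* also passed that threshold with trend and robust moderation (adjusted p = 0.112, 0.112 to 0.500 over its alternatives). No gene was higher at an adjusted p under 0.05 in any alternative (0 genes). The replicate block lowered the calls over all genes from 1179 to 941 at the unadjusted threshold and from 330 to 160 at the adjusted one. The adjusted count over all genes was 549 with trend and robust moderation, 39 without moderation and 108 to 188 with an array left out. The unadjusted count over all genes was 1342 with trend and robust moderation, 860 without moderation and 793 to 996 with an array left out. It was 1068 of 11469 genes with the filter on dim genes and 655 at a minimum change of 1.5-fold. Calls over all genes thus moved with these settings as well as those of the 10 genes. The replicate block has little basis in the data. Arrays with the same number, each taken against its line mean, had correlations of -0.0338 to 0.0280 over all genes. SCC FAK-WT replicate 1 correlated best with SCC FAK-/- replicate 2 (0.0588). The cause of the differences between alternatives was not tested, apart from the filter and the minimum change, which act by construction. With 3 arrays per line, the 95% intervals of *Mmp9* and *Mmp10* reach 1.46-fold and 1.49-fold upward.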
